A study of Mus musculus with 24 samples.

Results

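The genes described here encode the machinery that condenses chromosomes, attaches them to the spindle, separates them and cleaves the cell. They were taken from a list of 42 gene symbols and measured in C2C12 cells, a line of mouse myoblasts. Of these, 39 had a probe set that the array annotation assigned to 1 gene only, among 12393 genes with such a probe set. Cdca8, Spc24 and Espl1 were not analysed here because no probe set was assigned to them alone. Where a gene had several probe sets, the one with the highest mean over the 24 arrays was used.

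The study measured total RNA on Affymetrix arrays in 8 groups of 3 arrays each. Cells carried siRNA against IFT88, which encodes a protein of the intraflagellar transport complex needed to build cilia, or a negative control siRNA, and its stated question was how losing cilia bears on quiescence. The proliferating state was adherent culture in growth medium containing 20% fetal bovine serum, and the quiescent state was culture in suspension in that medium. Replated cells had been returned from suspension to a dish for 2 h, still in growth medium, and differentiating cells had been kept for 48 h in 2% horse serum. Every group, controls included, had been treated with an siRNA, and every group came from the 1 cell line. The labels number the arrays of a group from 1 to 3 without saying that they came from separate cultures, so the p-values measure the spread between these samples, which may be technical.

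Transcripts of many of these genes peak in the G2 and M phases of the cell cycle and are low in cells that have left it. In quiescent cells many promoters of such genes are held silent by the DREAM complex, made of the MuvB core, an E2F factor and a pocket protein. In dividing cells MuvB instead joins B-Myb, encoded by Mybl2, and FoxM1, and the same promoters are activated. Myoblasts held in suspension stop dividing without differentiating and can return to the cycle when they are replated, whereas myoblasts moved to low serum leave the cycle for good as they fuse into myotubes.

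The DREAM and MuvB complexes reach many such promoters through a short element, the cell cycle genes homology region, whose letters are TTTGAA or TTCGAA, often near CCAAT boxes, which bind NF-Y. Windows from 250 bases before to 50 bases after the start were at hand from RefSeq, build GRCm38.p6, for 33 of the 39 genes. Foxm1, Cdc25c, Smc4, Incenp, Tpx2 and Dlgap5 had no entry. Read on both strands, TTTGAA stood in 23 of the 33 windows (69.7%), against 962 of 6988 genes tested that had a window (13.8%). TTCGAA stood in 2 of the 33, in Cdc25b and Top2a, where the search counts it apart from TTTGAA. Within 50 bases of the start on either side, at least 1 of these 2 motifs was found for 21 of the 33 genes (63.6%), against 295 of 6988 (4.22%). CCAAT stood in 22 of the 33 (66.7%), against 43.2% of the genes tested, and at least 2 copies in 15 of the 33 (45.5%), against 17.2%. The E2F motifs TTTCCCGC and TTTGGCGC were each found in 1 window, Ncapg and Ncapd2, a share of 3.03% against 2.55% and 1.17% of the genes tested. A match describes letters in a window and shows no binding.

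The windows below run from 200 bases before the start to 30 bases after it, on the gene's strand, with capitals for the homology region element and for CCAAT on either strand. They are shown because Mki67, Ube2c, Cdc20, Racgap1 and Birc5 were among the largest differences between the siRNAs, and Cks2 and Ckap5 among the smallest. The windows are Mki67 at chr7:135716350-135716579 on the minus strand, Ube2c at chr2:164769729-164769958 on the plus strand, Cdc20 at chr4:118437314-118437543 on the minus strand, Racgap1 at chr15:99651627-99651856 on the minus strand, Birc5 at chr11:117849037-117849266 on the plus strand, Cks2 at chr13:51645032-51645261 on the plus strand and Ckap5 at chr2:91526562-91526791 on the plus strand.
Mki67: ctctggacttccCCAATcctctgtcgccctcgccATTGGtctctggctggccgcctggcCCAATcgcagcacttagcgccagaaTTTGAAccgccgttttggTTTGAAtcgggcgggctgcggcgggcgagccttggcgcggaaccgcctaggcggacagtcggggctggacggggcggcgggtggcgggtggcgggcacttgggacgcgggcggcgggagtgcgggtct
Ube2c: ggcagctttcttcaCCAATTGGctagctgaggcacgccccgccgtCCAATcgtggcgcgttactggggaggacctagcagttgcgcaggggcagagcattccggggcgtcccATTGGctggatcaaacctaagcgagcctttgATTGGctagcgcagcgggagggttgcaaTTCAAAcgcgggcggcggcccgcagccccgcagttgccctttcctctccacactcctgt
Cdc20: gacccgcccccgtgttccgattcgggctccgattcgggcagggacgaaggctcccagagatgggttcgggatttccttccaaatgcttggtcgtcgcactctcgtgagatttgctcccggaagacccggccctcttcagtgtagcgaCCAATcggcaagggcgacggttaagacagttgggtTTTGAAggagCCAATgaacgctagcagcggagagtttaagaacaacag
Racgap1: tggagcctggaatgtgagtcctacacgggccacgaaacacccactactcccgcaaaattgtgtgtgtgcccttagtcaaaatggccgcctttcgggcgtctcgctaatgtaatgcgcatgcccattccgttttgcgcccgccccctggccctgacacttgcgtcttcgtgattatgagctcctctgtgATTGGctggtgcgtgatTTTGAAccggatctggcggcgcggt
Birc5: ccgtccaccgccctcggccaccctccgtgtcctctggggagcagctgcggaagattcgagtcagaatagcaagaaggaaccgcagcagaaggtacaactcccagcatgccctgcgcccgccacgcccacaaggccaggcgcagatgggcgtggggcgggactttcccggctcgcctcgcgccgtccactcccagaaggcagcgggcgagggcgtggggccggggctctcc
Cks2: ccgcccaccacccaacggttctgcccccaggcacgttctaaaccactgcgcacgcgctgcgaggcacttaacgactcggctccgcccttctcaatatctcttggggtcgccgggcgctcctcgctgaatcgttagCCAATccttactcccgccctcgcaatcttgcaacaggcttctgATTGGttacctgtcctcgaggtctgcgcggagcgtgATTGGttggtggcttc
Ckap5: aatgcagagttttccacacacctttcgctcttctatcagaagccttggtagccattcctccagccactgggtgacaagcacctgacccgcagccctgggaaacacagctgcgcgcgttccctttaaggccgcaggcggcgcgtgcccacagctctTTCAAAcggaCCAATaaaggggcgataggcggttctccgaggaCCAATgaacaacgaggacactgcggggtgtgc
In Ube2c the element lay 29 bases before the start on the opposite strand, in Cdc20 18 bases before it, and in Ckap5 45 bases before it on the opposite strand. Mki67 held 2 copies, 116 and 98 bases before the start. Racgap1 held its copy just after the start. Birc5 held none of the motifs searched, and Cks2 held CCAAT only. Windows with and without the element thus occurred among the largest differences and among the smallest.

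The deposited values were log2 signals, and all tests used limma over 8616 genes with Benjamini-Hochberg adjustment of the p-values at a threshold of 0.05. For the targeted gene Ift88, the log2 difference between the siRNAs was -0.52 in proliferating cells (adjusted p = 0.294) and -0.69 in quiescent cells (adjusted p = 0.0112). It was -0.59 in replated cells (adjusted p = 0.0525) and -0.01 in differentiating cells (adjusted p = 0.999). Only the difference in quiescent cells passed the threshold. Of 8 myoblast markers, Pax7 and Msc were below the 40th percentile on every array of every group. All 6 endothelial markers were below it throughout. Median signals lay between 2.92 and 2.98 on the replated arrays and between 3.58 and 3.85 on all others, so the scale itself differed between states. The arrays measured bulk RNA, in which fewer dividing cells and less RNA per cell cannot be told apart.

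All 39 genes fell when control cells went from proliferation to suspension, against 29.4% of the genes tested that fell. The median log2 change was -4.50, a 22.6-fold fall, while the median over all genes tested was 0.14. The deepest fall was that of Cep55, which takes part in the final cut between daughter cells. It stood at 7.99, 7.83 and 7.88 on the proliferating control arrays and at 1.52, 2.06 and 2.21 on the quiescent ones, a log2 change of -5.97 ± 0.16 (SE). Next came Birc5, the survivin subunit of the chromosomal passenger complex (-5.74), Ube2c, the ubiquitin-conjugating enzyme of the anaphase-promoting complex (-5.41), and Ect2, the exchange factor that activates RhoA at the cleavage furrow (-5.32). The changes of Cdca5 (sororin, which protects sister chromatid cohesion), Hmmr (a spindle protein), Mki67 (the Ki-67 coat of mitotic chromosomes) and Cdca3 (a trigger of Wee1 degradation) lay between -5.27 and -5.18. The smallest falls were those of Ckap5, a microtubule polymerase that is also used outside mitosis (-1.18 ± 0.14), Smc4, the condensin ATPase (-2.04 ± 0.27), Cdc25b, a phosphatase that activates Cdk1 (-2.28 ± 0.14), and Cks2, a Cdk1 subunit (-2.36 ± 0.14). The proliferating and quiescent control arrays did not overlap for any of the 39 genes, where 31.1% of all genes tested lay fully lower. In quiescent control cells 11 genes were below the 40th percentile of the array on all 3 arrays, and the size of their change is therefore less certain. These were Mybl2, Cdc25c, Ncapg, Cdca5, Cenph, Ndc80, Nuf2, Nusap1, Dlgap5, Ect2 and Cep55. All 39 genes passed the filter on low values, and on the proliferating and differentiating arrays none was below that percentile. Other signals moved between the same arrays, and their part in the change was not tested. The log2 of the summed signal went from between 5.75 and 5.99 to between 8.56 and 8.68 for 12 macrophage markers, of which 5 of 7 tested were higher, and from between 7.95 and 10.95 to between 11.55 and 12.05 for 10 myotube markers, of which 9 were higher. No share of all genes called higher is given beside these marker counts. The signal difference between 3' and 5' probe sets, which rises as RNA degrades, went from 0.56 to 0.89 up to 1.22 to 1.31 for Actb, and was 0.47 to 1.06 and then 0.40 to 0.56 for Gapdh.

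**Figure D1:**
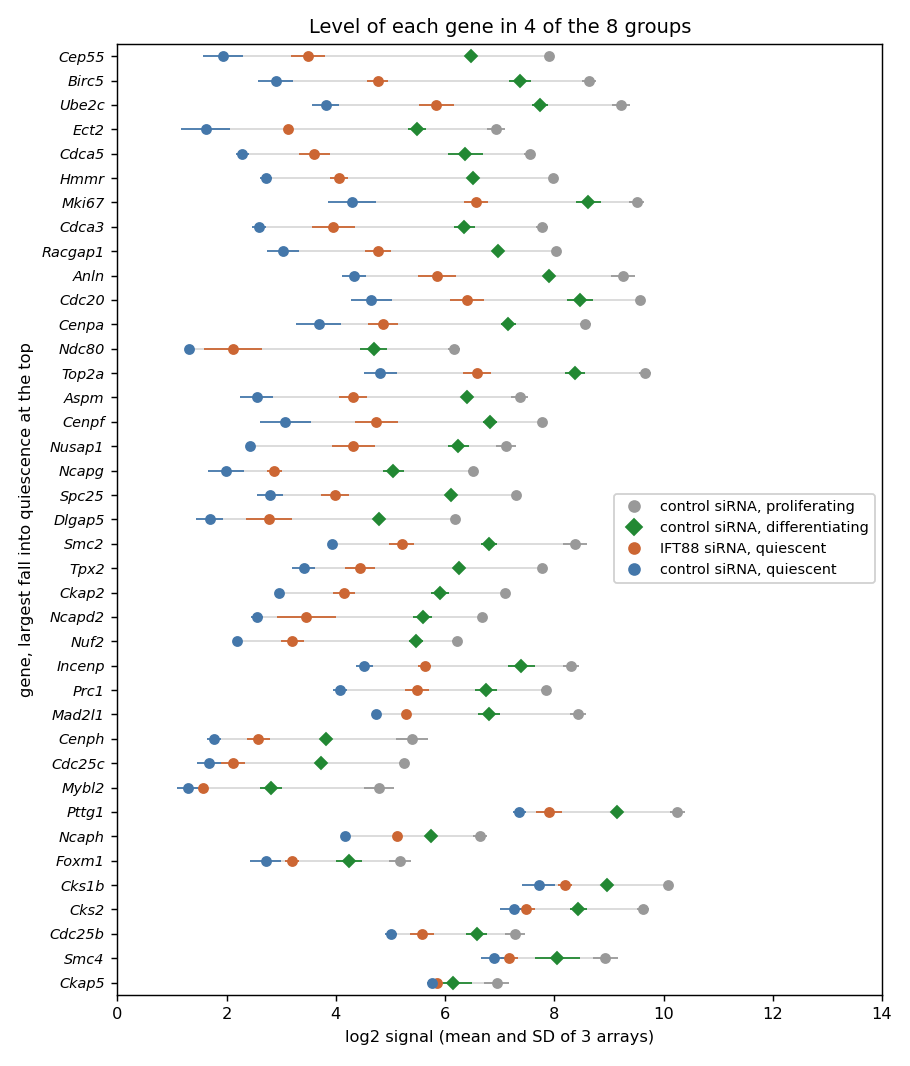
Mean log2 signal of each of the 39 genes (horizontal axis, bars SD of 3 arrays) in 4 groups, with genes ordered by the size of their fall from proliferating to quiescent control cells. Proliferating control cells lie at the right, quiescent control cells at the left, and quiescent cells with IFT88 siRNA between them. Signals of different genes come from different probe sets and are not comparable along the axis.

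Differentiating control cells kept much more of these transcripts than suspended ones. All 39 genes were lower at 48 h of differentiation than in proliferation, where 30.3% of the genes tested were lower, but the median log2 change was -1.20, a 2.29-fold fall. Mybl2, the B-Myb activator, fell most (-1.98 ± 0.15), from 5.06, 4.80 and 4.51 to 2.59, 2.87 and 2.98. Mad2l1, a spindle checkpoint protein (-1.62 ± 0.13), Cenph of the inner kinetochore (-1.58 ± 0.15), the condensin ATPase Smc2 (-1.57 ± 0.16) and Tpx2, the activator of Aurora A (-1.52 ± 0.13), followed. Cdc25b fell least (-0.71 ± 0.14). The call for Smc4 was lost in 1 of the 6 fits that left out an array, the one without differentiating control array 1. All 39 were higher in differentiating than in quiescent control cells, against 26.3% of the genes tested, with a median log2 difference of 3.11, and the difference ran from 4.54 for Cep55 to 0.39 for Ckap5. The arrays of these groups were apart for 38 of the 39 genes, and the 1 exception was Ckap5. Over all genes tested 28.9% lay fully higher. The call for Ckap5 was lost without quiescent control array 1 (0.38, adjusted p = 0.0515), quiescent control array 2 (0.35, adjusted p = 0.0663) or differentiating control array 1 (0.23, adjusted p = 0.17) in the limma fit.

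From suspension to 2 h after replating the direction depended on the scale. On the deposited values 31 genes were lower and 2 were higher in replated than in quiescent control cells, but 66.2% of all genes tested were lower too and 9.73% higher, and the median of -0.91 stood beside -0.60 for all genes. After quantile normalisation 20 were lower and 3 higher, with medians of -0.36 for these genes and -0.09 for all. After centring each array on its median 8 were lower and 12 higher, with medians of -0.05 and 0.26. The difference between 3' and 5' probe sets was 0.88 to 1.55 for Gapdh and 1.27 to 1.90 for Actb in replated controls, beside 0.40 to 0.56 and 1.22 to 1.31 in quiescent ones, and its part in the change was not tested. Mad2l1 (-1.98 ± 0.13), Smc2 (-1.83 ± 0.16) and Cdc25b (-1.80 ± 0.14) were called lower on all of these scales. Cdc20, the activator of the anaphase-promoting complex, was called higher on the deposited values (0.72 ± 0.19), but its probe set is of a kind that can bind related transcripts, and with a probe set of another kind the difference was -0.29.

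These genes were higher with IFT88 siRNA in suspended cells. Of the 39, 33 were higher in quiescent cells with IFT88 siRNA than in quiescent controls and none was lower, against 2.94% of the genes tested that were higher. The median log2 difference was 1.19, a 2.28-fold rise, while the median over all genes was -0.01. All 39 values were above 0, as were 47.0% of all genes. The arrays with IFT88 siRNA lay wholly above the control arrays for 34 of the 39, against 11.2% of all genes. The mean over the 39 genes was 3.55 ± 0.13 (SD, n = 3) in quiescent controls, between 3.45 and 3.70, and 4.68 ± 0.19 (SD, n = 3) with IFT88 siRNA, between 4.48 and 4.86. Array 2 with IFT88 siRNA was the highest of its group and array 3 the highest of the controls.

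**Figure D2:**
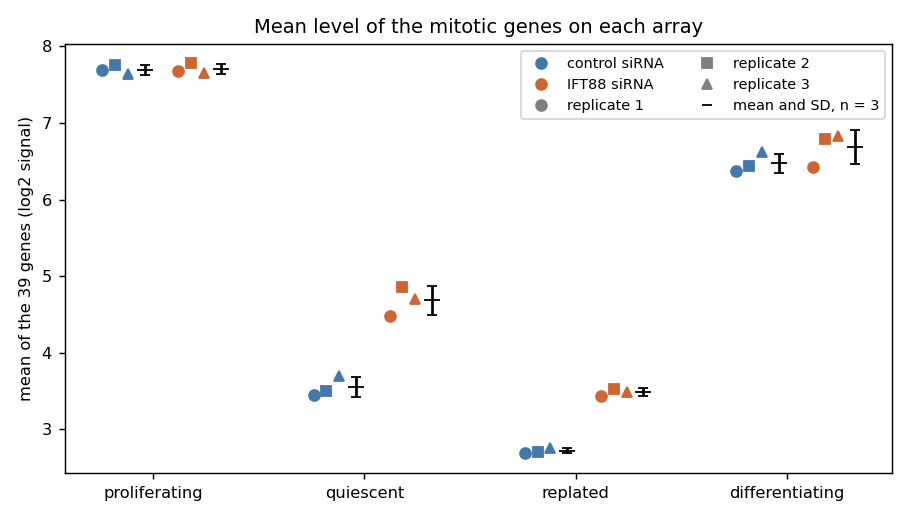
Mean log2 signal over the 39 genes on each of the 24 arrays (vertical axis), by culture state and siRNA, with the mean and SD of the 3 arrays of a group beside them and the replicate number as the symbol. The groups overlap in proliferating and differentiating cells and are apart in quiescent cells (3.45 to 3.70 and 4.48 to 4.86) and in replated cells (2.69 to 2.76 and 3.44 to 3.53).

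The 2 genes of chromosome structure both rose. Mki67, whose protein coats mitotic chromosomes, was at 3.97, 4.14 and 4.79 on the quiescent control arrays and at 6.31, 6.76 and 6.63 with IFT88 siRNA. No array of 1 group reached the other, and the log2 rise was 2.27 ± 0.20 (adjusted p = 2.14e-07), rank 2 of all rises. Top2a, the topoisomerase that untangles sister chromatids, was at 4.50, 4.84 and 5.10 in controls and at 6.33, 6.83 and 6.59 with IFT88 siRNA. Its rise was 1.77 ± 0.16 (adjusted p = 3.34e-07).

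Regulators of the anaphase-promoting complex and of the spindle checkpoint all rose, 4 of 4, with a median of 1.56. Ube2c, which loads ubiquitin onto the complex's substrates, read 3.70, 3.64 and 4.10 in controls against 5.56, 6.18 and 5.78 with IFT88 siRNA, a rise of 2.03 ± 0.19 (adjusted p = 6.56e-07). Its groups were apart by more than 1 log2 unit. Cdc20, which hands the complex its first substrates, read 4.67, 4.27 and 5.01 in controls against 6.16, 6.75 and 6.30, a rise of 1.75 ± 0.19 (adjusted p = 2.05e-06). Cdca3 rose by 1.36 ± 0.16. Mad2l1, whose protein holds Cdc20 inactive until every kinetochore is attached, rose less, by 0.54 ± 0.13 (adjusted p = 0.0121).

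All 5 cytokinesis genes rose, and their values were close to each other, from 1.41 for Prc1 to 1.73 for Racgap1. Racgap1, a subunit of centralspindlin, read 2.95, 2.80 and 3.36 in controls and 4.50, 4.92 and 4.88 with IFT88 siRNA (rise 1.73 ± 0.13, adjusted p = 5.57e-08). Every array with IFT88 siRNA was above every control array by more than 1 log2 unit. Cep55 rose by 1.56 ± 0.16, Anln (anillin, the scaffold of the contractile ring) by 1.52 ± 0.17, Ect2 by 1.52 ± 0.19 and Prc1, which bundles the microtubules of the central spindle, by 1.41 ± 0.14.

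Among 7 spindle genes 6 rose, with a median of 1.19. Nusap1, a microtubule bundling protein, stood at 2.44, 2.44 and 2.40 in controls and at 3.99, 4.75 and 4.22 with IFT88 siRNA, a rise of 1.89 ± 0.16 (adjusted p = 1.96e-07). All 3 of its control arrays were below the 40th percentile. Aspm, a protein of the spindle poles, stood at 2.35, 2.41 and 2.90 in controls and at 4.20, 4.60 and 4.14 with IFT88 siRNA, a rise of 1.76 ± 0.15 (adjusted p = 1.96e-07). Hmmr (1.33), Ckap2 (1.19), Dlgap5 (1.08) and Tpx2 (1.03) rose by less. Ckap5 did not pass the test and its arrays overlapped, at 5.73, 5.69 and 5.87 in controls and 5.88, 5.73 and 5.94 with IFT88 siRNA (0.09 ± 0.14, adjusted p = 0.854).

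Both genes of the chromosomal passenger complex rose. Birc5 stood at 2.57, 2.93 and 3.19 in controls and at 4.60, 4.97 and 4.72 with IFT88 siRNA, with no overlap (rise 1.87 ± 0.15, adjusted p = 7.66e-08). Incenp, the scaffold that activates Aurora B, rose by 1.10 ± 0.17. All 6 centromere and kinetochore genes rose, with a median of 1.10. They were the kinetochore corona protein Cenpf (1.67), Spc25 (1.19), Ndc80 (0.81) and Nuf2 (1.02) of the microtubule-binding Ndc80 complex, the centromeric histone Cenpa (1.19) and Cenph (0.81). Ndc80 was below the 40th percentile on every quiescent array of both siRNAs.

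Condensin, which compacts chromosomes, rose in 4 of 5 subunits, with a median of 0.90. Smc2 rose from 3.90, 3.99 and 3.91 to 4.96, 5.42 and 5.24 (1.27 ± 0.16), and its arrays did not overlap. The subunits outside the ATPase pair rose by 0.95 for Ncaph, 0.90 for Ncapd2 and 0.88 for Ncapg. Smc4, the partner of Smc2, did not pass the test, with 6.62, 7.01 and 7.06 in controls and 6.99, 7.25 and 7.28 with IFT88 siRNA (0.28 ± 0.27, adjusted p = 0.695). Of the cohesion genes, Cdca5 rose by 1.32 and Pttg1, the securin that holds separase back, by 0.55.

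The transcription factors and CDK regulators moved least, with 2 of 6 higher and a median of 0.46. Cdc25b (0.57 ± 0.14) and Cks1b, a CDK subunit (0.49 ± 0.13), rose. Foxm1, an activator of many of the other genes here, stood at 2.98, 2.42 and 2.74 in controls and 3.21, 3.06 and 3.31 with IFT88 siRNA (0.48 ± 0.19, adjusted p = 0.174). Mybl2 stood at 1.31, 1.08 and 1.47 against 1.62, 1.62 and 1.47 (0.28 ± 0.15, adjusted p = 0.351), low on every one of these arrays. Cdc25c, a phosphatase that activates Cdk1 at entry into mitosis, gave 0.44 ± 0.14 (adjusted p = 0.0765), and Cks2 gave 0.21 ± 0.14 (adjusted p = 0.51). With each siRNA pair of equal replicate number as a block, Foxm1 and Cdc25c passed as well, for 35 genes in all. Leaving out 1 array at a time gave 28 to 32 genes, and the lowest count came without IFT88 siRNA array 2. The genes lost in at least 1 of these fits were Cdc25b, Cks1b, Pttg1, Ndc80, Mad2l1 and Ncapd2. Without control array 3 neither Cdc25b nor Cks1b passed, which left 0 of the 6 transcription factors and CDK regulators. Without IFT88 siRNA array 3 these 2 genes did not pass either, but Cdc25c did.

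**Figure D3:**
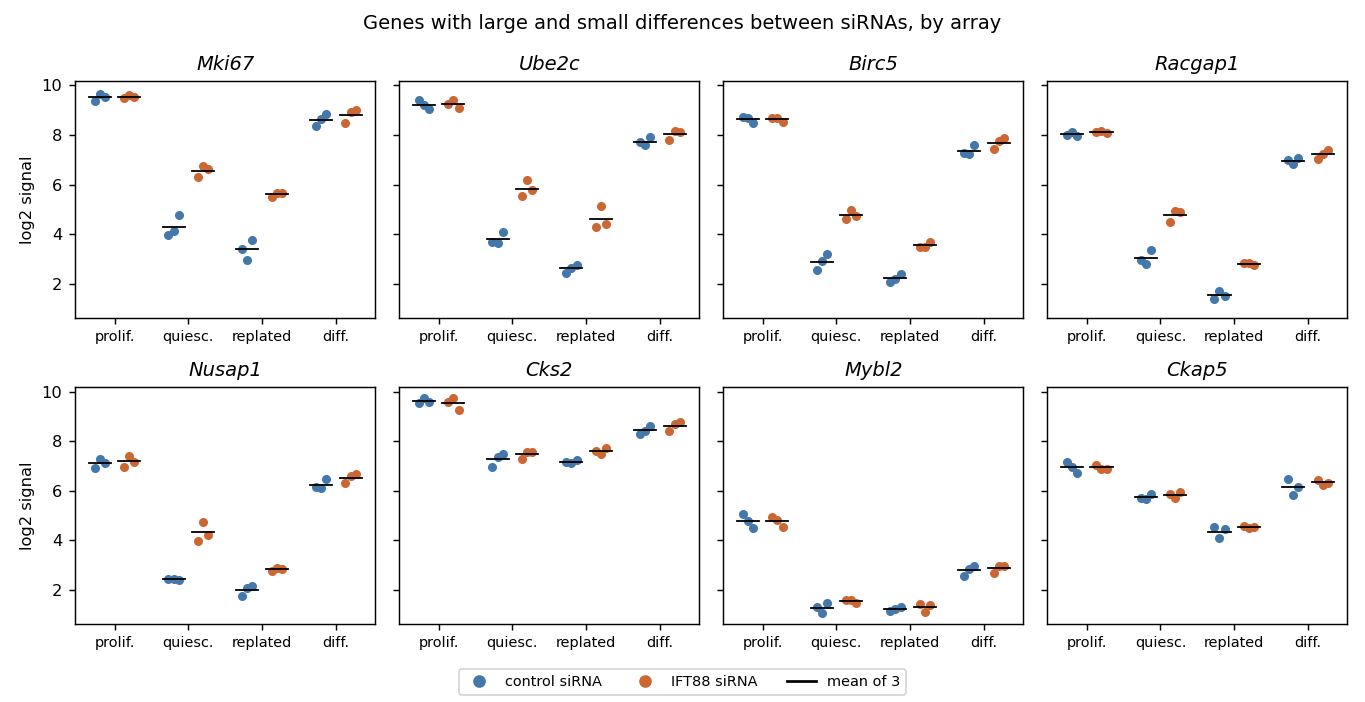
Log2 signal on each array (vertical axis) for 8 genes, by culture state and siRNA, with a line at the mean of 3 arrays. Mki67, Ube2c, Birc5, Racgap1 and Nusap1 show separate groups in quiescent and in replated cells, while Cks2, Mybl2 and Ckap5 overlap in quiescent cells.

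The rise was smaller than the fall into quiescence for each of the 39 genes. As a share of the control fall on the log2 scale, the difference in quiescent cells ranged from 7.44% for Ckap5 to 43.5% for Mki67, with a median of 25.4%. It was 40.4% for Nusap1, 38.4% for Ncaph, 37.5% for Ube2c and 37.4% for Prc1, and 8.03% for Mybl2 and 8.93% for Cks2. Cells with IFT88 siRNA accordingly still lowered all 39 genes between proliferation and suspension (29.2% of the genes tested), with a median of -3.10. The rise and the control fall use the same quiescent control arrays, so the 2 parts of each share are not independent. Nusap1 was below the 40th percentile on all 3 quiescent control arrays, and Mybl2 on all 3 with either siRNA, so their shares are uncertain.

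Genes of the same processes outside the list were examined by group. Of 15 mitotic cyclins and kinases, 12 rose in quiescent cells with IFT88 siRNA (median 1.06), led by Ccnb2, a B-type cyclin (1.91 ± 0.21), and Pbk, a mitotic kinase (1.81 ± 0.18). All 9 mitotic kinesins rose (median 1.29), among them Kif11, which pushes the spindle poles apart (1.48 ± 0.17). Of 18 other centromere and kinetochore genes, 6 rose and Zwint fell (-0.73), with a median of 0.19, and Sgo1, which protects centromeric cohesion, rose most (1.01 ± 0.14). Of 27 DNA replication genes 8 rose (median 0.30), led by Uhrf1 (1.33 ± 0.15) and Mcm5, a subunit of the replicative helicase (1.26 ± 0.18). None of 13 subunits and cofactors of the anaphase-promoting complex (median 0.01), none of 8 cohesin genes (median 0.05) and none of 9 genes of pocket proteins and the MuvB complex (median 0.06) passed the limma test, with 0, 1 and 2 of them higher at an unadjusted p under 0.05. No share of all genes at that unadjusted threshold is given here. Of the other condensin subunits, Ncapg2 of condensin II rose (0.72 ± 0.16) and Ncaph2 gave -0.07.

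Other markers moved in the same arrays, and their part in the result was not tested. The log2 of the summed signal of 12 macrophage markers was 8.56 to 8.68 in quiescent controls and 7.53 to 7.63 with IFT88 siRNA, with 3 of 7 tested lower. Of the 12, 6 were below the 40th percentile on all 3 quiescent control arrays (Ptprc, Adgre1, Itgam, Tyrobp, Laptm5 and Lyz2) and 8 on all 3 with IFT88 siRNA, where Cd68, Fcer1g and Clec10a joined that group and Laptm5 left it. The 10 myotube markers summed to 11.55 to 12.05 in controls and 12.12 to 12.74 with IFT88 siRNA. None of the 10 passed the test, and all 10 values were above 0. Of the 6 fibroblast markers tested 2 were lower, and so was the epithelial marker Krt19. No share of all genes called lower is given beside these marker counts. The difference between 3' and 5' probe sets was 0.40 to 0.56 for Gapdh in quiescent controls and 0.51 to 0.61 with IFT88 siRNA, and for Actb it was 1.22 to 1.31 and 1.14 to 1.21.

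**Figure D4:**
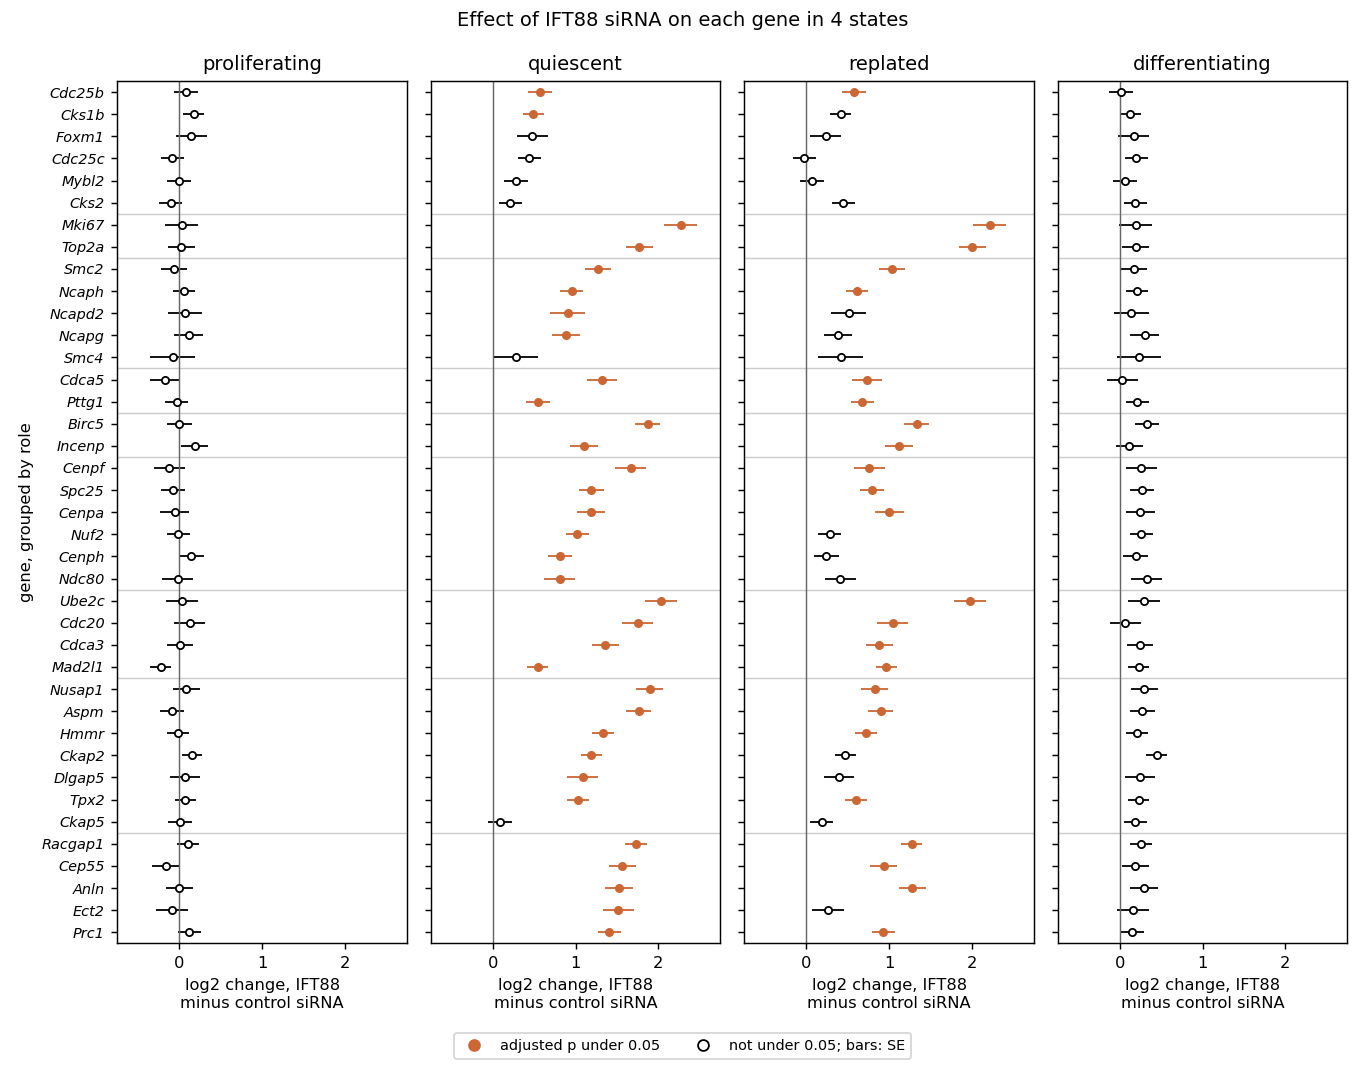
Log2 difference between IFT88 and control siRNA for each gene (horizontal axis, bars SE from limma) in the 4 states, with genes grouped by role and filled points where the adjusted p was under 0.05. Filled points number 0 in proliferating, 33 in quiescent, 24 in replated and 0 in differentiating cells.

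In proliferating cells the differences between the siRNAs were small and none was called. None of the 39 passed the limma test and none reached an unadjusted p under 0.05, where 0.348% of the genes tested passed. The median log2 difference was 0.00 and the values ran from -0.23 for Mad2l1 to 0.18 for Incenp. The arrays with IFT88 siRNA lay wholly above the control arrays for 4 genes, Cks1b (0.18), Cdc20 (0.12), Prc1 (0.12) and Dlgap5 (0.06), and wholly below them for none of the 39, where 5.28% of all genes lay wholly above. Mki67 stood at 9.37, 9.64 and 9.54 in controls and at 9.50, 9.59 and 9.53 with IFT88 siRNA. Its groups overlapped fully (0.03 ± 0.20, adjusted p = 1). In the same arrays all 10 myotube markers had values above 0 (median 0.72) and none passed. The mean over the 39 genes was 7.69 ± 0.06 (SD, n = 3) in controls and 7.70 ± 0.06 (SD, n = 3) with IFT88 siRNA.

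The difference between those 2 states was itself tested. The siRNA effect was larger in quiescent than in proliferating cells for 24 of the 39 genes and smaller for none, against 0.929% of the genes tested with a larger effect. The median difference of effects was 1.04. It was 2.24 ± 0.28 for Mki67 (adjusted p = 0.000119), 2.00 ± 0.27 for Ube2c (adjusted p = 0.000248), 1.87 ± 0.21 for Birc5 (adjusted p = 3.65e-05), 1.85 ± 0.21 for Aspm (adjusted p = 3.65e-05) and 1.81 ± 0.23 for Nusap1 (adjusted p = 0.000119). All 5 cytokinesis genes and all 4 checkpoint and ubiquitin ligase regulators were among the 24, and none of the 6 transcription factors and CDK regulators was. The call for Mad2l1 was lost in 8 of the 12 fits that left out 1 array, and that for Ncaph in 1 of them. With the mean of all probe sets of a gene, the calls for Cdca3, Ncaph and Spc25 were lost. Setting aside probe sets that can bind related transcripts lost Ncaph as well.

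In replated cells many of these genes were again higher with IFT88 siRNA. Of the 39, 24 were higher with IFT88 siRNA and none was lower, against 1.52% of the genes tested that were higher. The median was 0.72, a 1.64-fold difference, 38 of 39 values were above 0 where 51.1% of all genes were, and the arrays lay apart for 29 genes, against 9.47% of all genes. The mean over the 39 genes was 2.72 ± 0.04 (SD, n = 3) in controls and 3.49 ± 0.05 (SD, n = 3) with IFT88 siRNA. Low values are common here, with 15 genes of the replated controls and 8 of the replated cells with IFT88 siRNA below the 40th percentile on all 3 arrays.

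Mki67 was at 3.43, 2.98 and 3.76 in replated controls and at 5.51, 5.66 and 5.65 with IFT88 siRNA (2.22 ± 0.20, adjusted p = 7.61e-07). Top2a was at 3.75, 3.83 and 3.95 against 5.56, 6.10 and 5.89 (2.01 ± 0.16, adjusted p = 1.52e-07). Ube2c was at 2.45, 2.65 and 2.78 against 4.29, 5.15 and 4.40 (1.98 ± 0.19, adjusted p = 1.81e-06). For these 3 genes the log2 difference was about as large as in quiescent cells, and no array of 1 group reached the other. Birc5 (1.33 ± 0.15), Anln (1.28 ± 0.17), Racgap1 (1.27 ± 0.13), Incenp (1.12 ± 0.17) and Cdc20 (1.04 ± 0.19) followed. Mad2l1 was at 2.58, 2.85 and 2.86 against 3.74, 3.64 and 3.80 (0.97 ± 0.13, adjusted p = 8.87e-05).

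The genes that did not pass in replated cells included the 6 of quiescent cells, with Cdc25c at -0.03 ± 0.14, Mybl2 at 0.07 ± 0.15, Ckap5 at 0.18 ± 0.14 and Foxm1 at 0.23 ± 0.19. The other 9 were Cks1b, Ncapd2, Ncapg, Cenph, Ndc80, Nuf2, Dlgap5, Ckap2 and Ect2. Mybl2, Cdc25c, Ncapd2, Ncapg, Cenph, Ndc80, Nuf2 and Dlgap5 were below the 40th percentile on all 3 replated arrays of each siRNA. Ect2 was below it on all 3 replated control arrays and on 2 of the 3 with IFT88 siRNA. At such low signals the lack of a call does not show that an siRNA effect was absent. Ect2, which had risen by 1.52 in quiescent cells, stood at 1.60, 1.48 and 1.98 in replated controls and 1.82, 2.21 and 1.81 with IFT88 siRNA (0.26 ± 0.19, adjusted p = 0.601). Its arrays overlapped. The 24 genes called in replated cells were 72.7% of the 33 called in quiescent cells, and all 24 were among those 33.

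Leaving out 1 array at a time gave 20 to 22 genes in replated cells, and Cdca5 was lost in each of these 6 fits. With each siRNA pair of equal replicate number as a block 28 passed, adding Ckap2, Cks1b, Cks2 and Ncapd2. With the mean of all probe sets of a gene 18 passed. The macrophage markers summed to 7.33 to 7.57 in replated controls and 6.50 to 6.79 with IFT88 siRNA, and the myotube markers to 10.34 to 10.91 and 11.23 to 11.64. Their part in the result was not tested.

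Outside the list, 9 of the 15 mitotic cyclins and kinases rose in replated cells (median 0.87), led by Cdk1 (1.71 ± 0.13) and Ccnb2 (1.52 ± 0.21). Of the 9 mitotic kinesins 1 rose, Kif23 (0.79 ± 0.17), with a median of 0.33. None of the 18 other centromere and kinetochore genes passed, and 6 of 27 replication genes rose, led by Mcm3 (1.11 ± 0.20) and Uhrf1 (1.10 ± 0.15). Of the other condensin subunits Ncapg2 rose (0.65 ± 0.16).

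**Figure D5:**
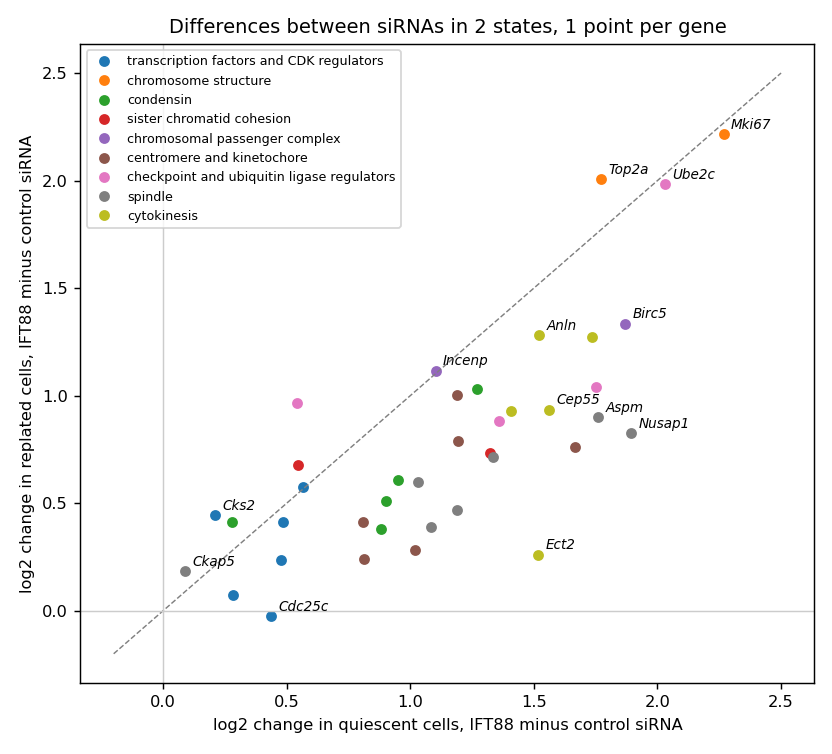
Log2 difference between IFT88 and control siRNA for the 39 genes in quiescent cells (horizontal axis) and replated cells (vertical axis), coloured by role, with the dashed line where both are equal. Of the 39 points 31 lie below the line, Mki67, Top2a and Ube2c lie at the upper right near it, and Ect2 and Nusap1 lie far below it.

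Across the 39 genes the differences in quiescent and replated cells had a Pearson r of 0.76 and a Spearman rho of 0.76. This is a description over genes, which are not independent, and the replated cells came from suspended ones. Of the 39 values 31 were smaller in replated cells, with a median change of -0.40, or -0.24 after quantile normalisation. The test of this change called none of the genes in limma, where 0.0580% of all genes tested were called. At an unadjusted p under 0.05, 18 were lower and 1 higher, with no share of all genes at that threshold given here. The largest changes were those of Ect2 (-1.26 ± 0.27, adjusted p = 0.146) and Nusap1 (-1.07 ± 0.23, adjusted p = 0.146). Their size is uncertain, because both genes were below the 40th percentile on all 3 quiescent control arrays. In replated controls Ect2 was below it on all 3 arrays and Nusap1 on 1. With each siRNA pair of equal replicate number within a state as a block, these 2 genes passed. With array weights Nusap1 and Ckap2 passed, 1 gene passed without control quiescent array 3 (Ect2) and 1 without IFT88 siRNA quiescent array 1 (Nusap1).

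In differentiating cells none of the 39 genes passed the limma test, where 0.139% of the genes tested did. All 39 values were above 0, against 52.7% of all genes, and the median was 0.21. Leaving out 1 array moved that median between 0.15 and 0.35, the highest without IFT88 siRNA array 1. An unadjusted p under 0.05, for which no share of all genes is given here, was reached by 2 genes. These were Ckap2, a spindle protein (0.45 ± 0.13, adjusted p = 0.329), and Birc5 (0.33 ± 0.15, adjusted p = 0.989). Ckap2 stood at 5.87, 5.76 and 6.09 in controls and at 6.15, 6.45 and 6.46 with IFT88 siRNA, without overlap, as did Anln among the other 38, and 5.93% of all genes. The mean over the 39 was 6.48 ± 0.13 (SD, n = 3) against 6.68 ± 0.22 (SD, n = 3), and the groups overlapped. The pairs of equal number differed by 0.06, 0.36 and 0.21, with IFT88 siRNA higher in each. In the same arrays all 10 myotube markers had values below 0 (median -0.18) and none passed, and their part in the result was not tested.

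The siRNA effect was smaller in differentiating than in quiescent cells for 21 of the 39 genes and larger for none, against 0.754% of the genes tested with a smaller effect. The median difference of effects was -0.93. Leaving out 1 array at a time gave 17 to 23 genes, with Ckap2, Incenp, Spc25 and Tpx2 lost most often. It was -2.08 ± 0.28 for Mki67 (adjusted p = 0.000334), -1.74 ± 0.27 for Ube2c (adjusted p = 0.00113), -1.69 ± 0.26 for Cdc20 (adjusted p = 0.00113), -1.60 ± 0.23 for Nusap1 (adjusted p = 0.000558) and -1.58 ± 0.23 for Top2a (adjusted p = 0.000558). The quiescent arrays enter this comparison as well as those with proliferating and replated cells, so the 3 differences of effects share them. Ift88 itself differed between the siRNAs by -0.01 in differentiating cells (limma adjusted p = 0.999) and by -0.69 in quiescent cells (adjusted p = 0.0112). The part of this in the comparison was not tested.

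Genes with and without the promoter element overlapped in their values. In quiescent cells the 24 genes with TTTGAA or TTCGAA had a median siRNA difference of 1.35, from 0.09 for Ckap5 to 2.27 for Mki67. The 9 with a window but neither motif had a median of 0.81, from 0.21 for Cks2 to 1.89 for Nusap1. The control fall into quiescence had medians of -4.85 and -3.62 in the same groups of genes. These medians carry no test, and the groups of genes were formed from sequence alone.

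Other probe sets of the same genes gave the same direction in quiescent cells at a smaller size. Of 31 such probe sets in 22 genes, 24 passed the filter on low values, and all 24 had the sign of the one used, 9 of them past the threshold. Their median was 0.52, against 1.07 for the probe sets used beside them, and 12 of 24 differed by a factor of more than 1.5 towards a smaller change. In replated cells 20 of 24 had the same sign and 7 passed. For the difference of siRNA effects, 2 of 24 passed between quiescent and proliferating cells, and 3 between differentiating and quiescent cells. The fall from proliferation to quiescence was called in all 24.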

How the data were processed

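Values for 22690 probe sets on 24 arrays were deposited by the authors as log2 signals, made with GCOS, Affymetrix Expression Console and affy, per the submitters' processing notes. The method of normalisation, and whether the states were normalised together, are not given in the sources used here. Array data give no read depth, so the number of arrays limits the precision. The annotation gave a single gene for 20380 probe sets, several for 691 and none for 1555, beside 64 control probe sets, and 29 symbols were kept as it gives them.

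The fit used the 8616 genes whose signal exceeded their array's 40th percentile on 3 or more arrays. All 24 arrays were fitted in 1 model with a coefficient per group (limma 3.58.1 in R 4.3.3), with 12 contrasts: 4 between siRNAs, 5 between states and 3 differences of siRNA effects. P-values were adjusted by Benjamini-Hochberg over all genes of a contrast. The script was tested on simulated data. Python 3.11.15 with pandas 2.3.3, numpy 2.4.6 and matplotlib 3.10.9 did the rest.

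The genes of the list, the comparison lists and the tests were chosen with earlier results of these data known. Full statistics went to up to 8 genes with the largest and 4 with the smallest change of a contrast, 5 of a difference of effects and 2 of each other list. Other genes are given by their values.

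Within a state, deviations from the group mean correlated at 0.257 to 0.708 between arrays of equal number and at most 0.127 between unequal ones, so the numbers pair the arrays there, from the data and not from the labels. Alternatives were quantile normalisation, median centring, no filter, the 60th percentile, the mean of probe sets, x_at probe sets set aside, a trended robust fit, array weights, the replicate block, only the groups compared, and each array left out.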

Additional observations from a re-analysis of the deposited data

Results flagged for a closer look

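The siRNA effect differed between states for many of the mitotic genes, by the limma test of the difference of effects with all 24 arrays. It was larger in quiescent than in proliferating cells for 24 of the 39 genes. The largest differences were 2.24 for Mki67, 2.00 for Ube2c, 1.87 for Birc5, 1.85 for Aspm and 1.81 for Nusap1 on the log2 scale. It was smaller in differentiating than in quiescent cells for 21 of the 39. The largest differences there were -2.08 for Mki67, -1.74 for Ube2c, -1.69 for Cdc20, -1.60 for Nusap1 and -1.58 for Top2a. Ift88 itself differed between the siRNAs by -0.52 in proliferating, -0.69 in quiescent and -0.01 in differentiating cells, and its part here was not tested. Both comparisons use the same quiescent arrays. Of 24 other probe sets of these genes that passed the filter, 24 and 21 had the same sign, but only 2 and 3 were called. Their medians were 0.47 and -0.36, against 0.94 and -0.87 for the probe sets used beside them. With the mean of all probe sets of a gene, 21 and 14 genes were called.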

How the results depend on the processing

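The counts of the 39 genes called stayed within 1.5 times of the reported ones under every alternative run, except in 2 comparisons. From quiescent to replated control cells 20 genes were called after median centring, and Mybl2 then gave 0.82 and Cks2 0.77, both above 0. Setting x_at probe sets aside turned Cdc20 in that comparison to -0.29. For the difference of siRNA effects between replated and quiescent cells, 2 genes were called with array weights and 2 with the replicate block, and leaving out 1 array at a time gave 0 to 1. With the replicate block 35 genes were called in quiescent cells, 28 in replated cells, 31 for quiescent against proliferating cells and 26 for differentiating against quiescent cells. The block lost no call. With only the compared groups in the fit, 29 and 19 genes were called in quiescent and replated cells. The mean of probe sets lowered the median siRNA difference in quiescent cells to 0.85. Over all genes, the replicate block raised the calls of siRNA differences from 30 to 169 in proliferating, from 452 to 1187 in quiescent, from 211 to 955 in replated and from 12 to 91 in differentiating cells, and array weights gave 90, 794, 470 and 26. With only the compared groups in the fit, 0, 75 and 0 were called in proliferating, replated and differentiating cells. Genes low on the array in quiescent or replated cells have changes of uncertain size.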
